A study of Mus musculus with 4 samples.

Results

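The transcription factors that pattern the hypothalamus were followed in RNA sequencing libraries of hypothalamus from mice fed a Western diet (WD). The set held 10 genes chosen by name, *Nkx2-1*, *Sim1*, *Otp*, *Six3*, *Six6*, *Nr5a1*, *Isl1*, *Lhx1*, *Lhx6* and *Fezf1*, of 16339 genes with a listed transcript. All 10 were listed, and all 10 passed the filter on low counts with 14344 genes in all. The question was which hypothalamic nuclei each library holds, and whether any of these factors differed between the genotypes.

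The genotypes were compared with 2 libraries each. WT WD were wild-type littermates, and *Tas1r3*-/- WD were mice with a conventional deletion of *Tas1r3*, so the gene was missing in every tissue. *Tas1r3* encodes a taste receptor subunit shared by the sweet and umami receptors. All 4 libraries came from male C57BL/6 mice that were 8 weeks old at the start of the diet, and all ate a diet with 60% fat and drank a 30% sucrose solution for 12 weeks. Mice on the normal diet were not analysed here. The labels number the libraries of a group as replicates without saying how the samples were made, so p-values measure the spread between these samples. Values are estimated counts per gene and CPM, the usual scaling of counts to library size, here with TMM factors that adjust for differences in library composition.

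Transcription factors of the homeodomain, LIM-homeodomain, bHLH-PAS, nuclear receptor and zinc finger families divide the developing hypothalamus into regions, and many remain expressed in the adult neurons of one region. A region's neurons can therefore be recognised in bulk RNA by a factor together with the neuropeptide those neurons make. In bulk tissue, fewer cells of a type and less RNA per cell cannot be told apart.

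The totals over named genes were between 5728729 and 6180137 estimated counts, so the 4 libraries had nearly the same depth. In these libraries 3 counts, the limit that a count of 0 allows, were between 0.481 and 0.525 CPM, and this limit covers counting error only. The deleted gene was at 6.00 and 4.44 CPM in the WT WD libraries, and those of *Tas1r3*-/- WD had 1.12 and 1.23 CPM, so *Tas1r3* was lower in both libraries labelled as knockout (log2 fold change -2.13, SE 0.42, adjusted p = 0.757 by edgeR).

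The library labelled WT WD replicate 2 stood apart from the other 3 before any comparison of genotypes. Its summed level of the 10 factors was 14.1 CPM, against 305.5 CPM in WT WD replicate 1 and 248 and 232 CPM in the *Tas1r3*-/- WD replicates 1 and 2. Several neuropeptides of hypothalamic nuclei, among them *Avp*, *Oxt*, *Trh*, *Pmch* and *Hcrt*, were at 6.58 CPM or less in the same library, and 10 of 10 thalamic markers were at their highest there. The tissue label of this library thus goes against its defining markers. The fold changes of the 10 factors between genotypes are given with and without it.

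**Figure D1:**
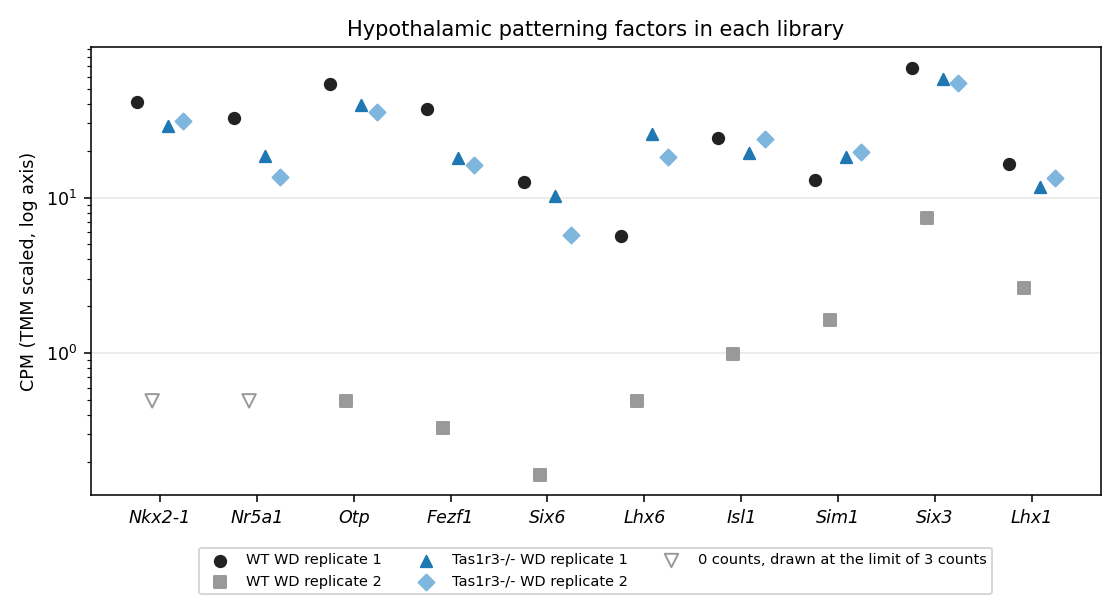
CPM (log axis) of each of the 10 factors in the 4 libraries, one symbol per library, with genes ordered by how far WT WD replicate 2 lies below the others. Open triangles mark *Nkx2-1* and *Nr5a1*, which had 0 counts in WT WD replicate 2 and are drawn at 3 counts. WT WD replicate 2 is the lowest library for 10 of 10 genes, and WT WD replicate 1 is above both *Tas1r3*-/- WD libraries for 8 of 10.

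*Nkx2-1* (chr12:56578742-56583722, minus strand, GRCm39) encodes a homeodomain protein needed to form the tuberal hypothalamus, where the arcuate, ventromedial and dorsomedial nuclei lie. It had 242 estimated counts in the first WT WD library and 0 in the second, against 179 and 177 in the first and second *Tas1r3*-/- WD libraries. In CPM these were 41.5, 0, 28.7 and 31.0, and later values keep this order of libraries. The 3 libraries with the gene lay within a narrow band, and their mean was at least 68.2-fold the 3-count limit of the library at 0. Of 14344 genes tested, *Nkx2-1* had the lowest position of WT WD replicate 2 relative to the other 3 (log2 difference -6.65 with a prior count of 2).

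*Sim1* and *Otp* act together in the development of the paraventricular and supraoptic nuclei, whose neurons release oxytocin, vasopressin, CRH and TRH. *Otp* (chr13:95012109-95021638, plus strand) had 314, 3.02, 246 and 204 estimated counts, which were 53.8, 0.493, 39.4 and 35.7 CPM. The mean of the 3 other libraries was 87.1-fold that of WT WD replicate 2 (exact 95% counting interval 29.7 to 423). *Sim1* (chr10:50770826-50865248, plus strand) had 76, 10, 114 and 113 estimated counts in the same order, or 13.03, 1.64, 18.3 and 19.8 CPM. Both *Tas1r3*-/- WD libraries were above both WT WD libraries for *Sim1*, and WT WD replicate 2 kept 10 counts (ratio 10.4, interval 5.56 to 21.8). Peptides of these nuclei were near 0 in the same library, where *Avp*, encoding vasopressin, had 2.30 CPM against 335, 197 and 202 CPM in the others. *Oxt*, encoding oxytocin, had 108, 3.45, 92.7 and 120 CPM, and *Trh*, encoding thyrotropin-releasing hormone, had 103, 1.64, 89.1 and 92.2 CPM.

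*Six3* and *Six6* encode related homeodomain proteins of the anterior forebrain, eye field and pituitary, and *Six6* and *Lhx1* are needed for the suprachiasmatic nucleus, the circadian clock of the brain. *Six3* (chr17:85920640-85936730, plus strand) had 399, 45.2, 362 and 313 estimated counts, or 68.4, 7.40, 58.0 and 54.8 CPM. It was the factor with the most counts left in WT WD replicate 2 (ratio 8.16, interval 6.06 to 11.3). *Six6* (chr12:72986666-72991673, plus strand) had 73.5, 1.03, 64.3 and 33.0 estimated counts, or 12.5, 0.164, 10.3 and 5.77 CPM (ratio 58.1, interval 10.3 to 2309). The interval is wide because it rests on about 1 count. *Lhx1* (chr11:84408803-84416368, minus strand) had 95.5, 16, 73.3 and 76 estimated counts, or 16.5, 2.63, 11.7 and 13.3 CPM, and its ratio was the smallest of the 10 (5.24, interval 3.16 to 9.31). Of the suprachiasmatic markers, *Vip*, encoding a peptide of its core neurons, had 18.3, 1.15, 10.6 and 11.4 CPM. The receptors *Prokr2* and *Vipr2* had 24.7 and 17.8 CPM in WT WD replicate 2, above their levels in the other 3 libraries, so that list was not lower throughout.

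*Nr5a1*, encoding the nuclear receptor SF-1, and *Fezf1*, encoding a zinc finger repressor, mark the ventromedial nucleus, and *Nr5a1* is also active in pituitary gonadotropes. *Nr5a1* (chr2:38581468-38604642, minus strand) had 190, 0, 116 and 77 estimated counts, or 32.6, 0, 18.6 and 13.5 CPM. Its level in the 3 other libraries was at least 43.7-fold the 3-count limit of WT WD replicate 2. *Fezf1* (chr6:23245041-23250858, minus strand) had 217, 2.0, 112 and 93 estimated counts, or 37.2, 0.329, 18.0 and 16.3 CPM (ratio 72.2, interval 19.9 to 598). For both genes WT WD replicate 1 was well above the pair of knockout libraries, which lay close together for *Fezf1* and further apart for *Nr5a1*. *Adcyap1*, encoding the peptide PACAP of ventromedial and other neurons, had 99.4, 35.8, 83.4 and 74.0 CPM and thus kept a clear level in WT WD replicate 2.

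*Isl1* (chr13:116434817-116446235, minus strand) encodes a LIM-homeodomain protein required for arcuate neurons that make POMC or AgRP, and is present in the pituitary and striatum too. It had 142, 6, 120 and 137 estimated counts, or 24.3, 0.987, 19.2 and 24.0 CPM (ratio 22.7, interval 10.4 to 62.3). The 3 libraries with *Isl1* were nearly level. *Pomc*, encoding the precursor of the melanocortins, varied far more, with 112, 2.47, 342 and 45.1 CPM. *Pomc* is a pituitary hormone gene as well, and its highest value was in *Tas1r3*-/- WD replicate 1, which also had 1459 CPM of the pituitary list, whose part in this value was not tested. *Cartpt*, encoding the CART peptide, had 183, 12.3, 129 and 120 CPM. *Tac2*, encoding neurokinin B, was instead highest in WT WD replicate 2, with 21.8, 63.0, 15.4 and 22.05 CPM.

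*Lhx6* (chr2:35971964-35995601, minus strand) encodes a LIM-homeodomain protein of inhibitory neurons, both in the zona incerta and dorsal hypothalamus and in the telencephalon, where it specifies interneurons of the medial ganglionic eminence. Its estimated counts were 33.0, 3, 161 and 104, or 5.66, 0.493, 25.8 and 18.2 CPM (ratio 33.97, interval 11.5 to 166). It was the one factor with a low level in WT WD replicate 1 as well, and both *Tas1r3*-/- WD libraries were above both WT WD libraries. The part of telencephalic cells in the *Lhx6* values was not tested. In the list of 7 interneuron markers the summed level was not higher in the knockout libraries, at 284, 117, 239 and 232 CPM, and *Sst*, encoding somatostatin, had 188, 25.5, 128 and 129 CPM.

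Across the set, WT WD replicate 2 was below each of the other 3 libraries for 10 of 10 factors, against 34.6% of all genes tested. It was at least 2 log2 units below the mean of the others for 10 of 10, against 1.37% of all genes. Its median difference from the other 3 over the 10 factors was -4.17 on the log2 CPM scale (range -6.65 to -2.24), and with the genes at 0 placed at 3 counts the median was also -4.17. Over all genes tested the median was -0.003. The corresponding medians of the factors were 1.77 for the other wild-type library and 1.47 and 1.28 for the knockout libraries, each of which includes WT WD replicate 2 among the other 3. Ranked from the lowest of 14344 differences in WT WD replicate 2, *Nkx2-1* was 1, *Nr5a1* 6, *Otp* 7, *Fezf1* 12, *Six6* 17, *Lhx6* 23, *Isl1* 24, *Sim1* 71, *Six3* 81 and *Lhx1* 150. No test is attached to these counts, since they describe 1 library.

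The marker lists of nuclei and neighbouring regions were read in the same way. Summed over a list, the paraventricular and supraoptic markers were 553, 8.06, 385 and 423 CPM in WT WD replicates 1 and 2 and *Tas1r3*-/- WD replicates 1 and 2. The lateral hypothalamic pair, *Pmch* and *Hcrt*, which encode melanin-concentrating hormone and orexin, summed to 931, 7.40, 436 and 651 CPM. Lesser differences were found for the arcuate list at 369, 81.1, 510 and 215 CPM, the suprachiasmatic list, which also holds *Avp*, at 376, 46.7, 226 and 231 CPM, the ventromedial list at 127, 42.1, 105 and 90.1 CPM and the mammillary list at 126, 29.8, 120 and 115 CPM. The sums of all 6 lists of hypothalamic regions were thus lowest in WT WD replicate 2, but that of the suprachiasmatic list rested on *Avp*. Without *Avp* its sum was 41.8, 44.4, 29.3 and 28.3 CPM, and WT WD replicate 2 was the highest. Without *Pomc*, which pituitary cells express too, the arcuate sum was 257, 78.6, 167 and 170 CPM.

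The sums of the thalamic, cortical and hippocampal, and choroid plexus lists went the other way in that library, and the remaining lists were mixed. The thalamic list summed to 389, 2497, 374 and 578 CPM, led by *Calb2*, encoding calretinin, at 262, 582, 211 and 279 CPM, *Prkcd*, a kinase of thalamic relay neurons, at 10.6, 584, 15.7 and 41.5 CPM and *Tcf7l2*, a thalamic transcription factor, at 10.8, 359, 26.8 and 42.5 CPM. *Slc17a7*, the vesicular glutamate transporter of cortex and parts of thalamus, had 10.8, 265, 2.41 and 11.9 CPM, and *Ttr*, the main choroid plexus transcript, had 4.29, 677, 3.05 and 0.70 CPM. The cortical and hippocampal list summed to 28.8, 289, 43.5 and 46.9 CPM and the choroid plexus list to 58.1, 745, 51.0 and 38.5 CPM. Pan-neuronal markers were not low in WT WD replicate 2, at 2478, 3911, 2441 and 2682 CPM. Glial lists were nearly level, with astrocyte markers at 1530, 1219, 1554 and 1429 CPM, oligodendrocyte markers at 4524, 5722, 5464 and 5623 CPM, and microglial markers at 216, 192, 212 and 181 CPM. The list of tanycyte and ependymal markers summed to 105, 97.8, 89.6 and 77.3 CPM, but its parts moved in opposite ways. The genes of tanycytes, the glia that line the floor of the ventricle, summed to 62.9, 3.45, 54.2 and 34.6 CPM (*Rax*, *Col23a1* and *Crym*), and those of ciliated ependyma summed to 42.5, 94.4, 35.4 and 42.7 CPM (*Foxj1*, *Ccdc153* and *Tmem212*). The striatal list summed to 175, 127, 289 and 157 CPM and so was lowest in WT WD replicate 2, as was the sum of the interneuron markers given above.

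Pituitary genes marked *Tas1r3*-/- WD replicate 1. The list summed to 17.5, 2.80, 1459 and 6.3 CPM, with growth hormone (*Gh*) at 12.2, 0, 760 and 2.45 CPM and prolactin (*Prl*) at 1.37, 0, 498 and 0.525 CPM. *Six3*, *Six6*, *Isl1* and *Nr5a1* are also expressed in the pituitary. All 4 factors had their highest level in WT WD replicate 1. The part of pituitary cells in their levels was not tested.

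**Figure D2:**
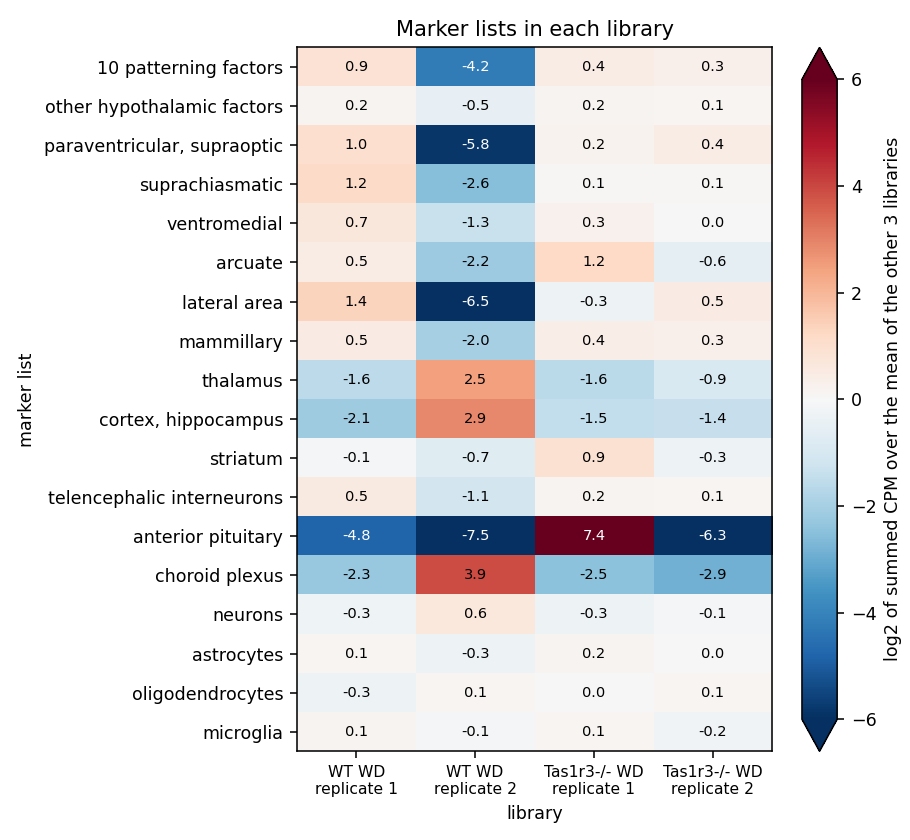
Log2 of the summed CPM of each marker list in a library over the mean of the other 3 libraries, with lists as rows and libraries as columns, and colours limited to values between -6 and 6. In WT WD replicate 2 the 10 patterning factors stand at -4.2 and the lateral area at -6.5, while the thalamus stands at 2.5 and the choroid plexus at 3.9. *Tas1r3*-/- WD replicate 1 stands at 7.4 for the anterior pituitary.

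Levels of different genes were compared per length, as CPM per kilobase of the canonical transcript in GENCODE, over the 3 libraries other than WT WD replicate 2. *Six3* had the highest level at 16.4 ± 1.93 CPM per kilobase (SD, n = 3), and *Otp* at 16.2 ± 3.60 and *Nkx2-1* at 14.0 ± 2.84 came next on the same scale. *Fezf1* followed at 9.76 ± 4.77, *Isl1* at 8.92 ± 1.13 and *Nr5a1* at 5.08 ± 2.33 CPM per kilobase. *Lhx6* had 4.60 ± 2.83, *Lhx1* 3.32 ± 0.58, *Six6* 2.37 ± 0.86 and *Sim1* 2.32 ± 0.48 CPM per kilobase. In all 9 pairs of neighbours in this order the ranges over the 3 libraries overlapped, so neighbours did not differ beyond their spread, whereas *Six3*, *Otp* and *Nkx2-1* did not overlap with any of the 5 lowest genes. These 3 libraries mix both genotypes, and the SD includes any difference between them.

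With all 4 libraries, none of the 10 factors differed between genotypes by the quasi-likelihood test of edgeR, which called 0 of 14344 genes (0% of genes tested). A call needed a fold change of 1.5 or more with an adjusted p under 0.05. At an unadjusted p under 0.05 it had 772 genes (5.38% of those tested), of which *Lhx6* was the one factor. DESeq2 called 8 and limma 0 of the 14344 genes, and neither called any of the 10 factors. The fitted log2 fold change was positive for 8 factors and negative for 2, with a median of 0.50 beside -0.006 over all genes. *Lhx6* had the largest value at 2.84 (SE 0.86, adjusted p = 0.757), followed by *Sim1* at 1.38 (SE 0.83, adjusted p = 0.757). The other 8 lay between -0.13 for *Fezf1* (SE 1.39, adjusted p = 0.984) and 0.77 for *Isl1* (SE 1.13, adjusted p = 0.863). Standard errors were between 0.79 and 1.49. Both knockout libraries were above both WT WD libraries for *Sim1* and *Lhx6*, or 2 of 10 against 20.6% of all genes, and below both for 0 of 10 against 19.0% of all genes.

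Without WT WD replicate 2, the direction turned for 6 factors and 2 passed the test. This fit set the pair of knockout libraries against WT WD replicate 1 alone, which was assumed to vary as the knockout libraries did, and it called 32 of 14714 genes. *Lhx6* was higher in *Tas1r3*-/- WD with a log2 fold change of 1.96 (SE 0.30, adjusted p = 0.0404 by edgeR), 1 of 27 genes called higher, which were 0.183% of the genes tested. *Fezf1* was lower with -1.12 (SE 0.17, adjusted p = 0.0360 by edgeR), 1 of 5 genes called lower, which were 0.0340%. *Nr5a1*, the other ventromedial factor, had -1.02 and did not pass the test (adjusted p = 0.105 by edgeR). The remaining log2 fold changes were -0.63 for *Six6*, -0.52 for *Otp*, -0.48 for *Nkx2-1*, -0.40 for *Lhx1*, -0.28 for *Six3*, -0.17 for *Isl1* and 0.54 for *Sim1*, none of which passed. The median over the 10 factors was -0.44. WT WD replicate 1 was above both knockout libraries for 8 of 10 factors, against 37.5% of all genes tested. With 1 wild-type library, the genotype and the tissue taken for that library cannot be told apart, and the sums of the hypothalamic marker lists above differed between the same libraries.

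Without WT WD replicate 1 the picture was the opposite. Against WT WD replicate 2 alone, 10 of 10 factors were called higher in *Tas1r3*-/- WD, where 7.55% of 14841 genes were called higher. Their log2 fold changes were between 2.24 for *Lhx1* and 6.20 for *Otp* among the 8 factors with counts in WT WD replicate 2, and *Nkx2-1* and *Nr5a1* were at least 60.5-fold and at least 32.5-fold higher than its 3-count limit. The median was 5.44 as fitted and 5.23 with those genes at their bounds. Which WT WD library is kept thus decided the sign of the median and of 8 of 10 factors, all but *Sim1* and *Lhx6*.

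**Figure D3:**
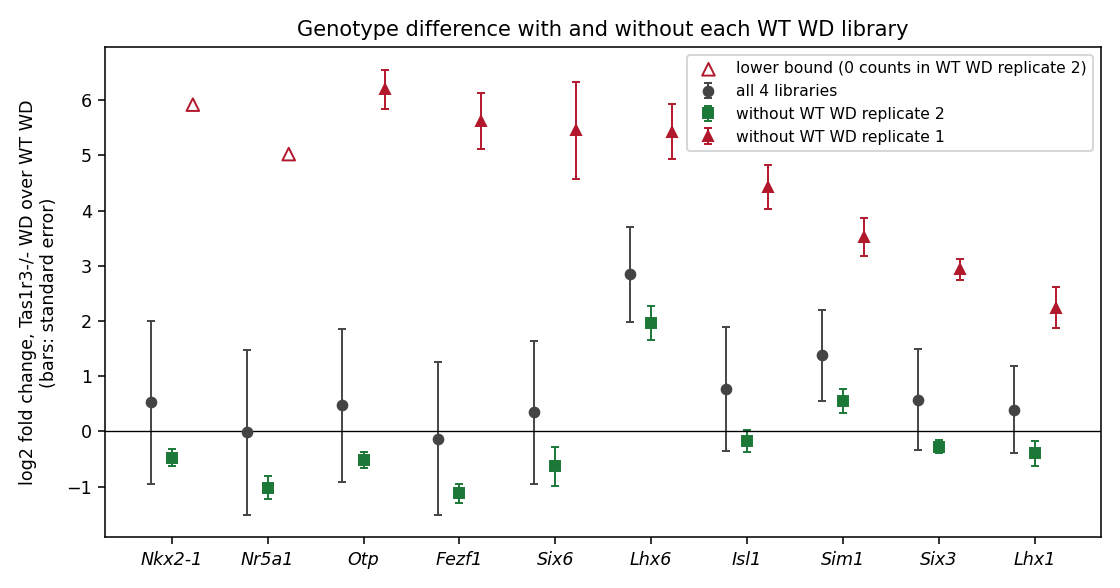
Log2 fold change of *Tas1r3*-/- WD over WT WD for each of the 10 factors, with bars for the standard error, from all 4 libraries and without either WT WD library. Open triangles are lower bounds for *Nkx2-1* and *Nr5a1*, which had 0 counts in WT WD replicate 2. Values without WT WD replicate 1 lie at 2.24 or above, and values without WT WD replicate 2 lie below 0 for 8 of 10 genes.

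*Lhx6* and *Nr5a1* were the factors with more than 1 listed RefSeq transcript. For *Lhx6*, NM_001083127 had the most estimated counts in each library, with 26.9, 2.19, 89.3 and 61.8. NM_001083125 had 0.238, 0.128, 36.6 and 19.2 estimated counts, and the latter pair, from the knockout libraries, were 22.7% and 18.5% of the gene there and 0.721% in WT WD replicate 1. NM_001083126 had 5.57, 0.453, 18.5 and 12.8 estimated counts. The higher counts of the knockout libraries were thus spread over several transcripts, and the share of NM_001083125 rested on 33.0 reads of the gene in WT WD replicate 1. For *Nr5a1*, NM_139051 had 153, 0, 79.4 and 65.4 estimated counts and NM_001316687 had 37.3, 0, 36.6 and 11.6, or 31.5% of the gene in *Tas1r3*-/- WD replicate 1 against 19.6% and 15.1% in the other libraries with counts. Transcripts of 1 gene share most of their sequence, so these splits are estimates of the authors' quantification and were not tested.

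**Figure D4:**
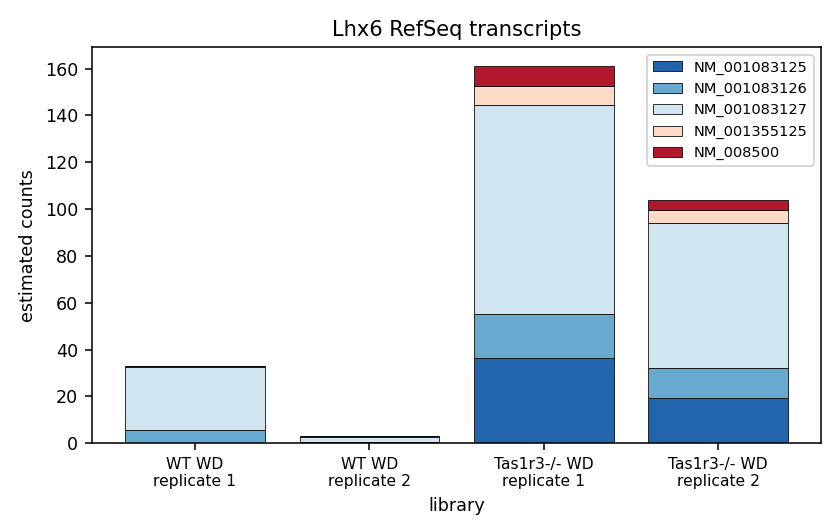
Estimated counts of the RefSeq transcripts of *Lhx6*, stacked, in each of the 4 libraries. The bars reach 33.0, 3, 161 and 104 estimated counts, and NM_001083125 reaches 36.6 and 19.2 in the *Tas1r3*-/- WD libraries and is below 1 in both WT WD libraries.

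Noncoding genes that overlap or adjoin a factor were listed for *Six3* and *Lhx1*. *Six3os1* had 19.4, 2.63, 20.7 and 16.6 CPM and so followed *Six3*, and *Lhx1os* had 2.91, 0.987, 2.24 and 2.45 CPM. The strand used in counting was not given in the sources used here, so reads of these genes and of their partners could be shared.

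The sequence before the RefSeq start sites of the factors was also read for short motifs. RefSeq windows of 250 bases (GRCm38.p6) were given for 9 of the 10 factors, with 11 windows in all since *Lhx6* has several starts. Each matched GRCm39 once. Many windows overlapped GENCODE exons, so they are not all sequence upstream of a gene. The *Lhx1* window, counted with CCAAT below, lay wholly in exons, and those of *Nkx2-1*, *Sim1* and *Six6* held 179, 178 and 172 exon bases. CCAAT, the box bound by NF-Y, was found on either strand in 8 of 11 windows and in 7 of 9 genes, against 33.85% of 32851 windows of all genes. TATAAA was found in 1 window (12.37% of all). TAATTA, a homeodomain core (4.84% of all), CAAGTG, which NKX2 proteins bind (11.61%), TCAAGGTCA, which SF-1 binds (0.39%), and CACGTG, an E-box (6.02%), were in none of the 11. The GC content of the windows was between 45.6% and 71.2%, beside a median of 52.4% over all genes. The 5 longest stretches with CCAAT that lie outside GENCODE exons are shown, 5′ to 3′ on the strand of the gene, with CCAAT or its reverse complement ATTGG in capitals. Those of *Otp* (chr13:95011894-95012108) and *Isl1* (chr13:116446236-116446474) end at the start of the gene, and those of *Six3* (chr17:85928012-85928217), *Fezf1* (chr6:23248390-23248509) and *Lhx6* (chr2:35994073-35994322) lie in introns of longer gene models, all on GRCm39.
Six3: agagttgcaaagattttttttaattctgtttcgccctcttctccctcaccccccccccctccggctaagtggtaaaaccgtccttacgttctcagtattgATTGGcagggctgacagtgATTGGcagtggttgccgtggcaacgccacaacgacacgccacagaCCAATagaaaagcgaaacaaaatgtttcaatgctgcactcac
Otp: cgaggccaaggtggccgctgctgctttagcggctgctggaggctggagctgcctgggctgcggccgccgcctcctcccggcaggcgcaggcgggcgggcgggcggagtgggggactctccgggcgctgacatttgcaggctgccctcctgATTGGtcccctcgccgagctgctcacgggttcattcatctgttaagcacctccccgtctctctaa
Isl1: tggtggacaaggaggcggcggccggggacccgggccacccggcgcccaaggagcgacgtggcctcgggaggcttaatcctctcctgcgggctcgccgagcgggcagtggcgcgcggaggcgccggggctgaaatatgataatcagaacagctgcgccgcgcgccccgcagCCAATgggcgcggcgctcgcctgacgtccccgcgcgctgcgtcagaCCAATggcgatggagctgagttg
Fezf1: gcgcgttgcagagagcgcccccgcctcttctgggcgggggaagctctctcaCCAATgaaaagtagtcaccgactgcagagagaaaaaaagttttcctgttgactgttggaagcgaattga
Lhx6: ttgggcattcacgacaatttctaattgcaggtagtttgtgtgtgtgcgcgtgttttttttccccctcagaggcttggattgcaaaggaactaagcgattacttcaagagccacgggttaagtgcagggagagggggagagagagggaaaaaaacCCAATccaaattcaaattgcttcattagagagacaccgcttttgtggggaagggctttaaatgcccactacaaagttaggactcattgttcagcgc
*Six3* holds the motif 3 times and *Isl1* 2 times in the part shown. A match in these letters describes the sequence and says nothing of binding. A link between these motifs and the levels in any library was not tested.

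The pattern of *Nkx2-1*, which had the widest range of the 10 factors at 6.96 log2 units, was compared with 12407 genes of at least 5 CPM on average. The nearest were *Avp*, *Pmch* and *Hcrt*, whose centred log2 CPM differed from that of *Nkx2-1* by at most 0.16, 0.42 and 0.49 in any of the 4 libraries. *Pmch* had 767, 6.58, 373 and 558 CPM and *Hcrt* had 164, 0.822, 62.9 and 93.1 CPM. The likeness rests on 4 libraries, of which WT WD replicate 2 sets most of the range.

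A wider list of 33 other hypothalamic transcription factors, fixed apart from the 10, was more mixed. Of its 32 genes tested, 0 were called between genotypes with all 4 libraries, with 24 fitted higher and 8 lower in *Tas1r3*-/- WD and a median log2 fold change of 0.51. These fitted directions include WT WD replicate 2, and the fit without it was not read for this list. WT WD replicate 2 was the lowest library for 26 of the 32, the highest for 5 and between the others for 1, and 16 lay at least 2 log2 units below the other 3. The list's median difference in that library was -2.0, against -4.17 for the 10 patterning factors. Its sum was 792, 551, 789 and 764 CPM, with *Arnt2*, the partner of SIM1, as its most abundant gene at 374, 204, 369 and 358 CPM. *Prox1*, a homeobox gene of several brain regions, had 29.8, 101, 34.6 and 38.1 CPM, and *Nr2f2*, a nuclear receptor, had 50.7, 29.9, 44.1 and 51.8 CPM. *Arnt2* thus kept a high level in the library where *Sim1* had 1.64 CPM. WT WD replicate 1 was above both knockout libraries for 14 of the 33 genes (42.4%, against 37.5% of all genes tested). It was below both for 12 (36.4%, against 37.6%), so the 8 of 10 seen for the patterning factors did not extend to this list.

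**Figure D5:**
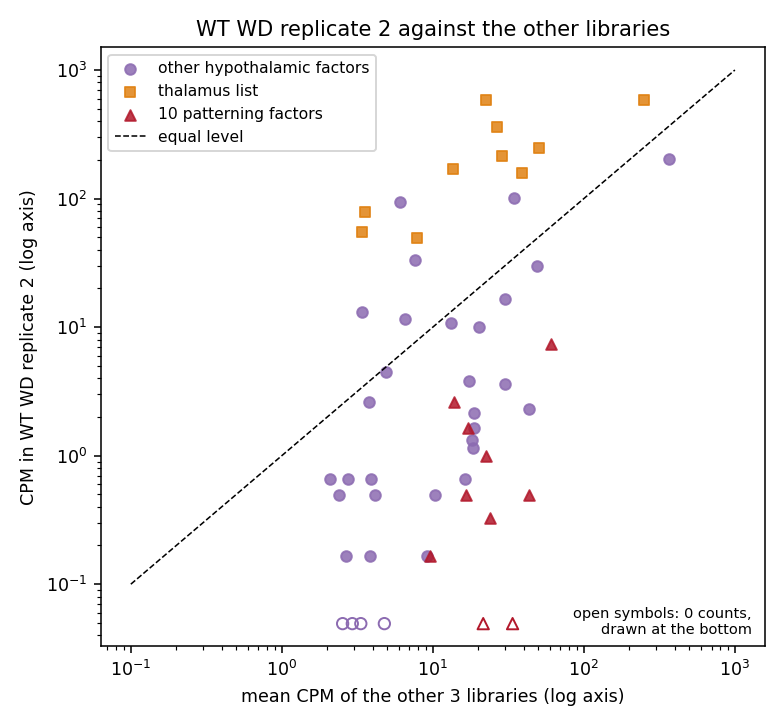
CPM in WT WD replicate 2 against the mean CPM of the other 3 libraries, both on log axes, for the 10 patterning factors, the other hypothalamic factors and the thalamic list, with a dashed line of equal level and open symbols for 0 counts. All 10 patterning factors lie under the line and all 10 thalamic markers over it, and the other hypothalamic factors lie on both sides.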

How the data were processed

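Hypothalamic RNA of male WT and *Tas1r3*-/- mice on WD was poly(A) selected, depleted of rRNA and sequenced on Ion Torrent. STAR within Partek Flow was used by the authors to align the reads (mm39), and they deposited estimated counts per RefSeq transcript, without normalization (30930 transcripts). Transcripts were summed per symbol with names from a RefSeq gene table (GRCm38.p6). The 39 transcripts without a name held 0.347% to 2.49% of a library and were left out. The design assumed gene counts, so the sums were rounded. Genotypes were compared with the quasi-likelihood test of edgeR 4.0.16 in R 4.3.3 (TMM, filterByExpr, Benjamini-Hochberg over all genes tested), and a call needed a fold change of 1.5 or more with an adjusted p under 0.05. DESeq2 1.42.0, limma-trend (limma 3.58.1), other scalings and filters, a replicate block, and leaving out each library were alternatives. Log2 CPM used a prior count of 2. Fits were tested on simulated data. Counting intervals are exact 95% intervals on rounded counts. Coordinates and canonical lengths are from GENCODE M39 on GRCm39.

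The 10 factors, the marker lists and the tests were chosen with earlier results of these data known. Besides all 10 factors, at most the 3 most abundant genes of each list were named. *Vip*, *Prokr2*, *Vipr2*, *Rax*, *Crym*, *Tmem212* and the genes in the closing section, and the sums over part of a list, were chosen after their values were seen.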

Additional observations from a re-analysis of the deposited data

How the results depend on the processing

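Leaving out each library in turn gave between 0 and 2123 genes called, between 0 and 10 factors called, and a median log2 fold change of the 10 factors between -0.44 and 5.44. The extremes came from leaving out WT WD replicate 2 (32 genes and 2 factors called, median -0.44) and WT WD replicate 1 (2123 genes and 10 factors called, median 5.44), and without either *Tas1r3*-/- WD library 0 genes were called. Over the same 4 fits the log2 fold change ranged from -0.48 to 10.5 for *Nkx2-1*, from -0.52 to 6.20 for *Otp*, from -0.28 to 2.93 for *Six3*, from -0.63 to 5.45 for *Six6*, from -1.02 to 9.60 for *Nr5a1*, from -0.17 to 4.43 for *Isl1*, from -0.40 to 2.24 for *Lhx1* and from -1.12 to 5.62 for *Fezf1*. The highest values of *Nkx2-1* and *Nr5a1* rest on 0 counts in WT WD replicate 2 and depend on the prior count, so they are no bounds. DESeq2 called 8 genes, the other fits of all 4 libraries 0, and every such fit called 0 of the 10 factors. Of 63 values of single factors under these other fits, 59 kept their direction and 4 turned: *Nr5a1* had 2.28 with limma-trend and 1.08 with the replicate block, and *Fezf1* had 1.80 and 0.93. The median log2 fold change of the factors was 1.92 with limma-trend, and 1.32 with the replicate block, which called 0 genes. The replicate numbers did not pair the libraries by their deviations (r = 0.082), and the labels tie them to nothing shared. The median difference of WT WD replicate 2 was -4.90 with a prior count of 0.5, which lifts low counts less, and -2.96 for the 3 factors with at least 10 counts in every library (*Sim1*, *Six3* and *Lhx1*), since that filter removes the lowest genes. The 2 libraries per group and 10 or fewer counts for 8 of the factors in WT WD replicate 2 limit the precision of these comparisons.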

Other observations

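Among the other hypothalamic factors, those that were low in the library labelled WT WD replicate 2 and those that were high there had different regional backgrounds. The genes below were chosen after their values were seen, and no test was run on them. The DLX homeobox genes, which act in inhibitory neurons of the forebrain, were low in that library. *Dlx1* had 49.2 CPM in WT WD replicate 1, 2.30 CPM in WT WD replicate 2, and 38.6 and 41.1 CPM in *Tas1r3*-/- WD replicates 1 and 2. In the same order *Dlx2* had 19.4, 0.658, 12.99 and 16.8 CPM. *Vax1*, a homeobox gene of the anterior ventral forebrain, had 28.6, 1.15, 15.4 and 11.2 CPM. *Nkx2-4*, a close relative of *Nkx2-1*, had 0 counts in WT WD replicate 2 and 3.60, 2.41 and 1.58 CPM in the others.

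*Lhx9* and *Lhx2*, LIM-homeobox genes that the developing thalamus also expresses, were highest in WT WD replicate 2. *Lhx9* had 3.09, 94.1, 5.93 and 9.27 CPM and *Lhx2* had 7.54, 33.1, 8.66 and 6.47 CPM. *Irx5* had 4.29, 12.99, 3.05 and 2.80 CPM. *Nkx2-2*, a homeobox gene expressed in the ventral forebrain and in the oligodendrocyte lineage, was nearly level, with 13.4, 10.9, 13.5 and 12.4 CPM.

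*Meis2*, a TALE homeobox gene, had 19.5, 3.62, 37.0 and 33.2 CPM and thus had the same order of libraries as *Lhx6*.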
